A study of Mus musculus with 6 samples.

Results

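The expression of 10 genes of the Toll-like receptor and NF-kB pathway was compared between WT and TG mice in hippocampal tissue. They are the receptors Tlr2, Tlr3, Tlr4 and Tlr7, the adaptor Myd88, the feedback inhibitors Nfkbia and Tnfaip3, and the NF-kB family genes Nfkb1, Nfkb2 and Relb. They were chosen by gene symbol, each had 1 row, and they are 10 of the 54532 genes of the deposited table. The study asked what changes in the transcriptome of mice whose Slc1a2 gene, which encodes the astrocytic glutamate transporter GLT-1, carries the G82R and L85P changes. Total RNA of hippocampal tissue was sequenced in 3 libraries of WT mice (WT1 to WT3) and 3 of TG mice (TG1 to TG3), named after the numbers in their labels. Per the study's methods the TG mice were CRISPR/Cas9 knock-in mice on a C57BL/6N background and the WT mice were littermates. Both groups of mice in the study held males and females. The labels name no treatment beside the genotype. The zygosity, age and sex of the sequenced animals were not given in the sources used here, nor whether a library came from 1 animal, so the p-values measure the spread between these libraries.

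Toll-like receptors recognise molecules of microbes and of damaged cells. TLR2 and TLR4 sit mainly at the cell surface, whereas TLR3 binds double-stranded RNA and TLR7 single-stranded RNA in endosomes. Most of these receptors signal through MyD88, and TLR3 signals through TRIF, the product of Ticam1. The signal leads to the breakdown of IkB-alpha, the product of Nfkbia, which holds NF-kB dimers in the cytoplasm. NF-kB then enters the nucleus and switches on its own inhibitors, among them Nfkbia and Tnfaip3, which encodes the ubiquitin-editing enzyme A20. A slower, non-canonical branch runs through the kinase NIK, encoded by Map3k14, and through dimers of p52 (from Nfkb2) and RelB. In the brain, microglia carry most of these receptors, and TLR3 is known from astrocytes as well.

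The values are FPKM, read numbers scaled to gene length and library size. For Nfkb1 and Tnfaip3, among others, that length equals all annotated exon bases of the gene (12061 and 7226). It need not be the length of the transcripts present, so levels of different genes can be compared only roughly. The reads on genes were between 16081281 and 18751057 per library, so that 3 reads on 1 kb correspond to 0.160 to 0.190 FPKM. Camk2a, a marker of excitatory neurons, had an FPKM of 448.5 to 608 and Prox1, a marker of dentate granule cells, of 9.81 to 14.4, so markers of hippocampal tissue were present in all 6 libraries. Slc1a2 itself stood at 202, 199.5 and 177 FPKM in WT1 to WT3, against 222, 207 and 217 in TG1 to TG3, and FPKM do not hold the altered bases. TG1 and TG2 stand apart by markers of the choroid plexus, which lies in the ventricles and makes cerebrospinal fluid. The summed FPKM of 14 such markers was 58.3 to 83.1 in WT mice, and 1223, 3867 and 66.9 in TG1 to TG3. Groups were compared with limma on log2(FPKM + 0.1) over 20952 genes (mean FPKM 0.1 or more), two-sided, with Benjamini-Hochberg adjustment over all of them. On this scale the fold change of a gene with low FPKM is understated. In bulk tissue, fewer cells of a type and less RNA per cell cannot be told apart.

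Several of these genes are textbook targets of NF-kB, so the 250 bases before their start sites were searched for the kappaB consensus, on both strands and with overlapping matches merged. RefSeq windows of build GRCm38.p6 matched 6 of the 10 genes, and Tlr4, Tlr7, Nfkb1 and Relb were not among them. The window nearest to the gene start in the table was used. A match was found in 5 of the 6, against 7.25% of all 32851 windows. The sixth, Myd88, held the core of the interferon-stimulated response element (GAAA, NN and GAAA in a row, where N is any base), which 2.98% of the windows hold. The matched stretches follow, 5′ to 3′ on the strand of the gene, with the match in capitals.
Tlr2, chr3:83841761-83841790, minus strand: aggacacctGGGGAATTCCCacacggagcc
Tlr3, chr8:45410572-45410601, minus strand: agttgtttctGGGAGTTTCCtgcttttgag
Myd88, chr9:119340039-119340068, minus strand: gagcttctcgGAAAGCGAAAgaaggagggg
Nfkbia, chr12:55492657-55492686, minus strand: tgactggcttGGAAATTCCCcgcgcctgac
Tnfaip3, chr10:19015516-19015545, minus strand: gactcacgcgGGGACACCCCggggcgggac
Tnfaip3, chr10:19015411-19015440, minus strand: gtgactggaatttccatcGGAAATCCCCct
Nfkb2, chr19:46304689-46304718, plus strand: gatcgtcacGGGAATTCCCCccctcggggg
Nfkb2, chr19:46304707-46304736, plus strand: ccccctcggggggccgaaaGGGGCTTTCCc

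In Tnfaip3 the matches began 125 and 12 bases before the RefSeq start, and in Nfkb2 they began 39 and 11 bases before it. The single matches began 173 bases before the start in Tlr2, 211 in Tlr3, 40 in Myd88 and 29 in Nfkbia. In the GENCODE M21 annotation, the Nfkbia stretch lay outside the gene. Those of Tnfaip3 lay within the gene but outside its exons, and those of Tlr3 and Nfkb2 lay in exons of the annotated gene. In the table, however, Nfkb2 starts at 46304737, so that both Nfkb2 stretches lay before that start. Of the stretches in Tlr2 and Myd88, 7 of 30 and 3 of 30 bases were exonic. These matches describe the sequence and do not show binding. The window of Nfkbia is printed whole, because this gene was the most abundant of the group and its start was the same in RefSeq and in the table.
Nfkbia, chr12:55492648-55492897, minus strand: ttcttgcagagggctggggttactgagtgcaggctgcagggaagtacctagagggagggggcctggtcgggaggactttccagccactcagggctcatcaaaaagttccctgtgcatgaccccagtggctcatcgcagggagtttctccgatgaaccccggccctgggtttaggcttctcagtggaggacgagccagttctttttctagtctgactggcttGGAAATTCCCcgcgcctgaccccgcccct

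In the WT hippocampus the level of these genes spanned a 62.1-fold range. Nfkbia was the highest, with a WT mean of 15.7 FPKM, 6.78 times that of the next gene. Tlr3 (2.31 FPKM), Relb (2.24) and Myd88 (2.10) followed, and the WT libraries of neighbours in this order overlapped, so these genes could not be ranked among themselves. Nfkb1 came next at 1.69 FPKM. Its place depends on the length used, as it had 316 to 415 reads per library over 12061 bases, against 203 to 298 over 5207 for Tlr3. Tnfaip3 (1.08), Nfkb2 (1.03) and Tlr7 (0.879) again overlapped from neighbour to neighbour. Tlr2 (0.382) and Tlr4 (0.252) were the lowest and lay apart from each other and from Tlr7. Among the receptors, the level of Tlr3 was therefore well above those of Tlr2, Tlr4 and Tlr7, none of which reached a WT mean of 1 FPKM. The reads behind these values were 389 to 522 per library for Nfkbia, but only 16 to 65 for Tlr2 and 21 to 40 for Tlr4.

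All 10 genes had a log2 fold change above 0 in TG mice, where 49.6% of all genes tested did. Their median was 0.19, against a median of -0.0020 over all genes tested. With limma, 2 of the 10 genes, Tlr2 and Tnfaip3, were higher with an unadjusted p under 0.05 and none was lower, while 3.13% of all genes were higher and 2.78% lower at that level. After adjustment none of the 10 passed 0.05, and over all genes 0.00477% were higher and the same share lower. In Tlr2, Tlr4, Myd88 and Tnfaip3 the lowest TG value exceeded the highest WT value, which held for 6.35% of all genes. No gene of the group had all TG libraries below all WT libraries, against 5.71% of all genes. The number higher at an unadjusted p under 0.05 was 0 without TG2, 3 without TG1, and 1 without WT1, WT2 or TG3. Over all genes it was 454 without TG2, 526 without TG1, and 769, 655 and 589 without WT1, WT2 and TG3. With the choroid plexus score as a covariate, neither Tlr2 nor Tnfaip3 kept an unadjusted p under 0.05. That score was 3.05, 4.64 and 0.128 in TG1 to TG3 and -0.210 to 0.277 in WT, so it partly follows the genotype. In that fit 327 of 20952 genes were higher at that level, compared with 656 without the covariate.

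**Figure D1:**
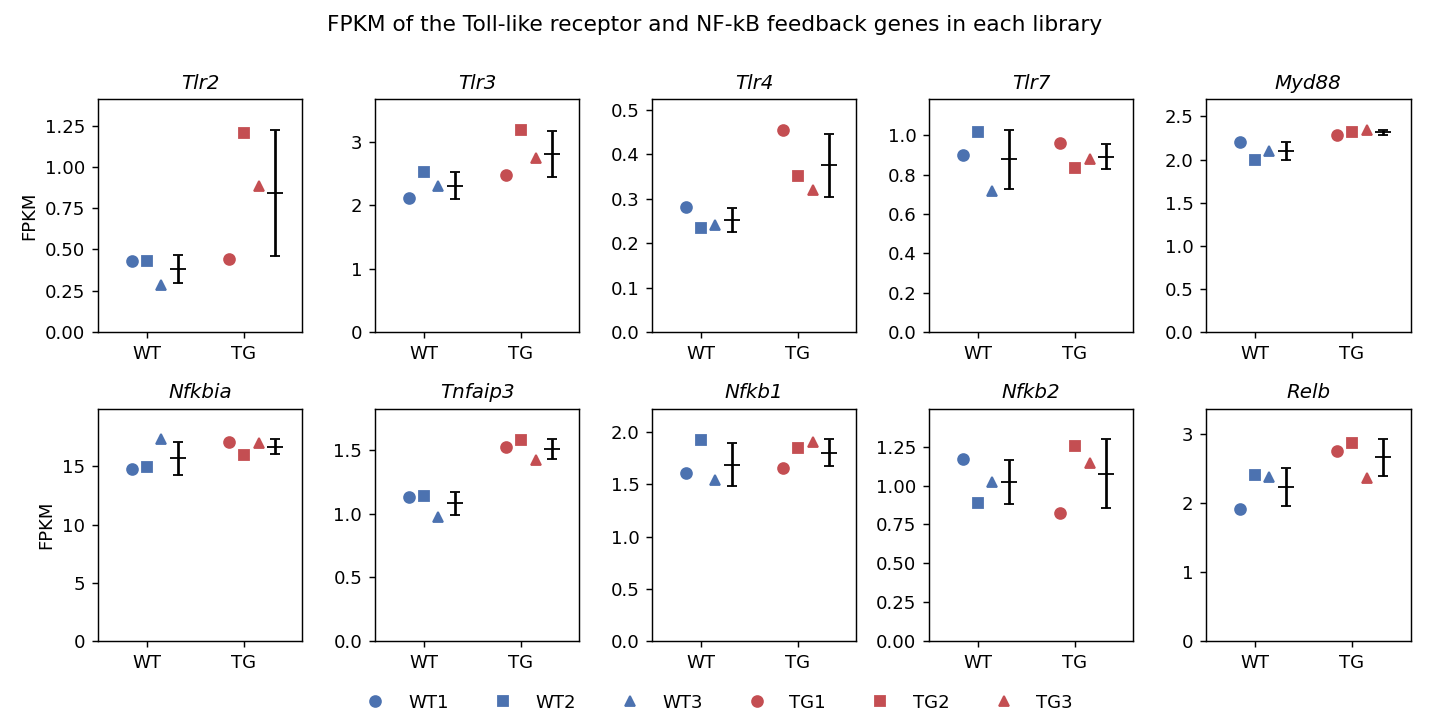
FPKM of each gene (vertical axis, starting at 0) in the 3 WT libraries (blue) and the 3 TG libraries (red), with the replicate number given by the symbol and the mean ± SD beside the points. The TG points of Tnfaip3, Tlr4 and Myd88 all lie above the WT points, and in Tlr2 the TG1 point (0.440) lies next to the WT points while TG2 and TG3 lie above them.

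**Figure D2:**
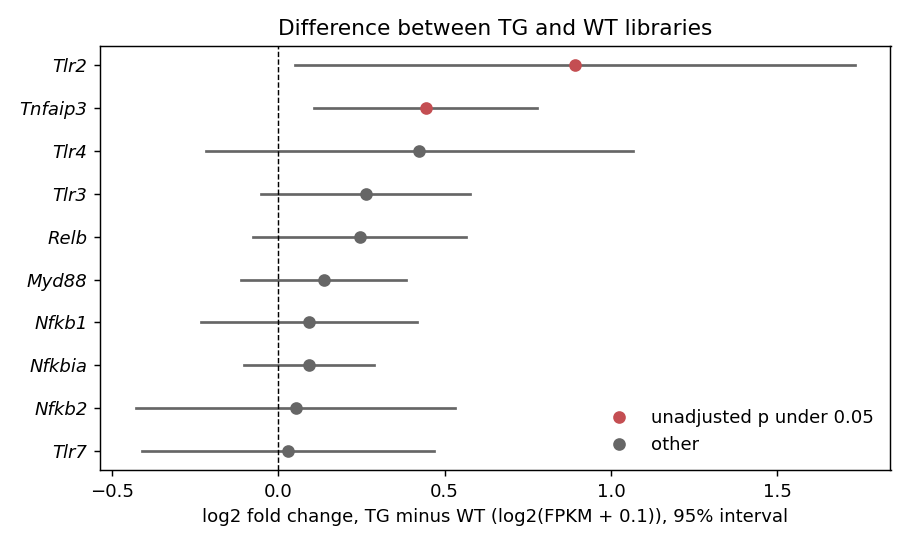
Log2 fold change between TG and WT libraries (horizontal axis, log2(FPKM + 0.1)) with the 95% interval from limma, ordered by size, and red where the unadjusted p was under 0.05. The intervals of Tlr2 and Tnfaip3 lie above 0 and the other 8 include 0.

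The surface receptors are given first. Tlr2 (ENSMUSG00000027995, chromosome 3 from 83836272 to 83841767 in GRCm38), which recognises lipoproteins together with TLR1 or TLR6, stood at 0.431, 0.431 and 0.284 FPKM in WT1 to WT3, against 0.440, 1.20 and 0.882 in TG1 to TG3. TG2 and TG3 were high, whereas TG1 exceeded the highest WT library by only 0.00894. The log2 fold change was 0.89 (standard error 0.358, limma unadjusted p = 0.0404, adjusted p = 0.786), with a 95% interval from 1.04-fold to 3.32-fold. The unadjusted p of Tlr2 was 0.0602, 0.0601 and 0.118 without WT1, WT2 and WT3, 0.141 without TG2 and 0.104 without TG3, and without TG1 it was 0.00463 with a log2 fold change of 1.25. Of all 10 genes Tlr2 varied most between TG libraries, with an SD of 45.5% of the mean, compared with 22.3% in WT mice. Tlr4 (ENSMUSG00000039005, chromosome 4 from 66827584 to 66930284), the receptor of bacterial lipopolysaccharide, stood at 0.282, 0.234 and 0.240 FPKM in WT1 to WT3, against 0.455, 0.351 and 0.319 in TG1 to TG3. The groups did not overlap and TG1 was the highest. With a log2 fold change of 0.42 (standard error 0.273, limma unadjusted p = 0.163), the difference of Tlr4 did not pass, whereas with a variance prior that had no trend on expression its unadjusted p was 0.0242.

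The endosomal receptors Tlr3 and Tlr7 both had overlapping groups. Tlr3 (ENSMUSG00000031639, chromosome 8 from 45395665 to 45411080) stood at 2.11, 2.53 and 2.30 FPKM in WT1 to WT3, against 2.48, 3.19 and 2.74 in TG1 to TG3. TG1 lay within the WT range, and the log2 fold change was 0.26 (standard error 0.134, limma unadjusted p = 0.0882). For Tlr3 it was 0.35 without TG1 (unadjusted p = 0.0496), but 0.17 without TG2 (0.271) and 0.20 without WT1 (0.227). Of its exonic bases 7.32% are overlapped by the antisense gene Gm45542, whose reads cannot be told apart where strand is not stated. Tlr7 (ENSMUSG00000044583, chromosome X from 167304929 to 167330558) stood at 0.901, 1.02 and 0.720 FPKM in WT1 to WT3, against 0.960, 0.834 and 0.882 in TG1 to TG3. The TG values of Tlr7 lay inside the WT range, the 95% interval ran from 0.752-fold to 1.38-fold, and the direction turned without WT3 or without TG1.

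Myd88 (ENSMUSG00000032508, chromosome 9 from 119335934 to 119341411), the adaptor shared by TLR2, TLR4 and TLR7, stood at 2.20, 1.99 and 2.09 FPKM in WT1 to WT3, against 2.28, 2.32 and 2.34 in TG1 to TG3. The groups did not overlap, but the lowest TG library was only 0.0768 above the highest WT library, on 83 to 109 reads per library. The log2 fold change of 0.14 (standard error 0.106, limma unadjusted p = 0.239) did not pass. In Myd88, 11.3% of the exonic bases are shared with Acaa1a on the opposite strand.

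The inhibitors Tnfaip3 and Nfkbia are both induced by NF-kB. Tnfaip3 (ENSMUSG00000019850, chromosome 10 from 19000910 to 19015657) stood at 1.13, 1.14 and 0.976 FPKM in WT1 to WT3, against 1.52, 1.57 and 1.42 in TG1 to TG3. All TG libraries were high, the gap between the groups was 0.278, and the spread within a group was small (1.08 ± 0.0920 FPKM in WT and 1.505 ± 0.0800 in TG, SD, n = 3 each). The log2 fold change was 0.44 (standard error 0.143), a 1.36-fold difference with a 95% interval from 1.08 to 1.71, and it had the smallest unadjusted p of the group (limma, 0.0163; adjusted p = 0.786). In Tnfaip3 the unadjusted p was 0.0511 without TG2 and 0.0420 or less without any other single library, and it was 0.149 with the choroid plexus score as a covariate, where the log2 fold change was 0.35. Nfkbia (ENSMUSG00000021025, chromosome 12 from 55489410 to 55492647) stood at 14.7, 15.0 and 17.3 FPKM in WT1 to WT3, against 17.1, 15.9 and 17.0 in TG1 to TG3. Here WT3 was the highest of all 6 libraries and the groups overlapped. The 95% interval of the Nfkbia difference, from 0.931-fold to 1.22-fold, included 1-fold. The log2 fold change of Nfkbia was 0.092, and it moved to 0.17 without WT3 (limma unadjusted p = 0.0385), 0.050 without WT1 (0.615) and 0.061 without WT2 (0.547). Whether the differences of Tnfaip3 and Nfkbia differ from each other was not tested.

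Among the NF-kB family genes, Relb (ENSMUSG00000002983, chromosome 7 from 19606217 to 19629438) stood at 1.92, 2.41 and 2.38 FPKM in WT1 to WT3, against 2.75, 2.87 and 2.37 in TG1 to TG3. TG1 and TG2 lay above the WT range and TG3 within it, and the log2 fold change was 0.24 (standard error 0.137, limma unadjusted p = 0.116). Without WT1 the log2 fold change of Relb was 0.14 (unadjusted p = 0.331), and with TG1 and TG2 both left out it was 0.085 (0.693). Nfkb1 (ENSMUSG00000028163, chromosome 3 from 135584655 to 135691547), which encodes p105 and p50, stood at 1.61, 1.92 and 1.54 FPKM in WT1 to WT3, against 1.66, 1.84 and 1.91 in TG1 to TG3, all of these within the WT range, and its log2 fold change of 0.092 ranged from 0.032 without WT3 to 0.18 without WT2. Nfkb2 (ENSMUSG00000025225, chromosome 19 from 46304737 to 46312090) stood at 1.17, 0.885 and 1.02 FPKM in WT1 to WT3, against 0.826, 1.26 and 1.14 in TG1 to TG3. TG libraries of Nfkb2 lay both below and above the WT range, and its direction turned without WT2 or without TG2. In GENCODE M21, 830 of 4584 exonic bases of Nfkb2 (18.1%) are overlapped by genes on the opposite strand, Psd among them. The table's Nfkb2 has a length of 3289 bases and other coordinates, so this share need not hold for the gene as measured. The 95% intervals reached from 0.851-fold to 1.34-fold for Nfkb1 and from 0.743-fold to 1.45-fold for Nfkb2.

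The TG libraries did not rank alike across the group. Relative to the WT mean on the log2 scale, the median of the 10 genes was 0.052, 0.090 and -0.026 for the WT libraries in their order, compared with 0.13, 0.32 and 0.16 for the TG libraries. TG2 held the highest TG value of 5 genes (Tlr2, Tlr3, Tnfaip3, Nfkb2 and Relb), and TG1 the lowest TG value of 5 genes. The numbers of genes above the WT mean were 6, 6 and 3 among the WT libraries, compared with 8, 9 and 10 among the TG libraries.

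Markers of the cells that could carry these transcripts were set beside them. The 20 microglial markers had medians of 0.076, -0.10 and 0.0018 across the WT libraries, compared with -0.19, 0.21 and 0.22 across the TG libraries on the same scale, none was at 0 in any library, and their summed FPKM was 245 to 274 in WT mice and 222 to 305 in TG mice. Of these markers 12 had a log2 fold change above 0 and 8 below. At an unadjusted p under 0.05, 2 of the 20 were higher (3.13% of all genes tested) and none lower (2.78%). With the microglial score as a covariate, the log2 fold change was 0.79 for Tlr2 (limma unadjusted p = 0.0378) and 0.45 for Tnfaip3 (0.0279). None of the 9 markers of border macrophages passed an unadjusted p of 0.05, and their summed FPKM was 3.15 to 4.89 in WT mice and 4.50 to 5.38 in TG mice. With their score as a covariate the unadjusted p was 0.136 for Tlr2 and 0.0844 for Tnfaip3 at log2 fold changes of 0.95 and 0.46, while those of Tlr3 and Relb were 0.0435 and 0.0191. Of the 10 T and NK cell markers only 4 had a mean FPKM of at least 0.1 and none passed. The summed FPKM of all 10 was 0.273 to 0.710 in WT mice and 0.795, 1.84 and 1.58 in TG1 to TG3. These sums rest on few reads, as Nkg7, the marker with the highest mean FPKM, had 0 to 11 reads per library. Of the 14 choroid plexus markers 9 were higher at an unadjusted p under 0.05. With their score as a covariate, the log2 fold change of Tlr2 was 0.76 (unadjusted p = 0.201). With TG1 and TG2 both left out, so that TG3 alone stood for the TG mice and was assumed to vary like the WT libraries, the log2 fold change was 1.04 for Tlr2 (unadjusted p = 0.0402) and 0.36 for Tnfaip3 (0.152). The part of these cells in the results was not tested beyond these values. The remaining lists (neutrophils and monocytes, astrocytes, endothelium, meningeal fibroblasts, blood and hippocampal neurons) had medians between -0.32 and 0.30 log2 fold change.

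**Figure D3:**
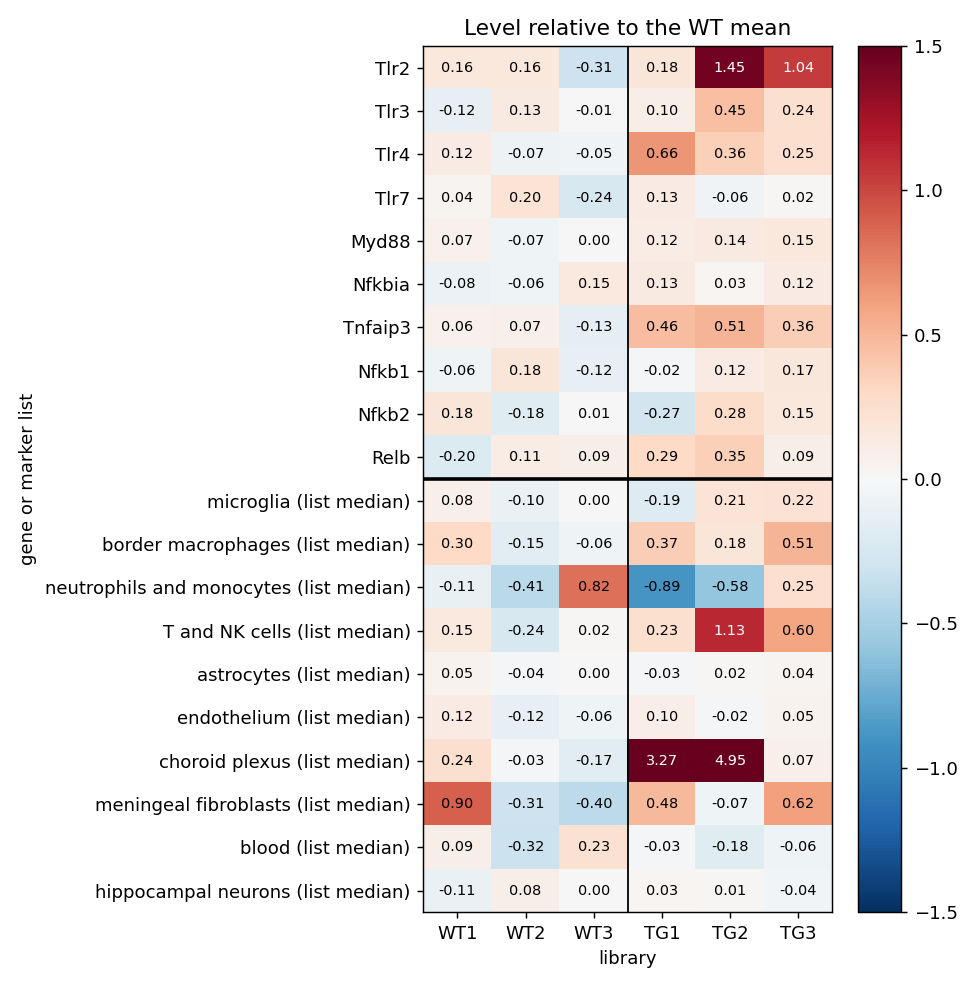
Each gene's log2(FPKM + 0.1) minus its WT mean in each library (columns), above the same measure as the median of each list of cell type markers (rows below the line), with the value printed in each cell and colours that end at 1.5 in either direction. Tnfaip3 is between 0.36 and 0.51 in the TG libraries, Tlr2 is at 1.45 and 1.04 in TG2 and TG3, and the choroid plexus markers are at 3.27 and 4.95 in TG1 and TG2.

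The rest of the pathway was read from 6 hand-written lists of 91 genes, of which 76 were tested. At an unadjusted p under 0.05, 4 of these 76 were higher (3.13% of all genes tested) and none lower (2.78%), and none passed after adjustment. The median log2 fold change was 0.08, and 9 of the 76 had all TG values above all WT values, which 6.35% of all genes had, with none below. This number of 4 was 2 without WT3 or without TG2, and 1 with the choroid plexus score as a covariate. Over all genes tested the number was 440, 454 and 327 in these fits, in that order, against 656 as reported.

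Of the 8 other Toll-like receptors, Tlr5, Tlr8 and Tlr11 had a mean FPKM under 0.1, and all 5 that were tested had a log2 fold change above 0 (0.17 to 0.67). Tlr13, which binds bacterial ribosomal RNA and was the most abundant of them, stood at 0.641, 0.532 and 0.596 FPKM in WT1 to WT3, against 0.896, 0.829 and 0.810 in TG1 to TG3. Its groups did not overlap (log2 fold change 0.46, standard error 0.182, limma unadjusted p = 0.0390, adjusted p = 0.786), but Tlr13 kept an unadjusted p under 0.05 in only 5 of 17 alternatives and lost it without WT2, WT3 or any TG library. Of the 10 co-receptors and chaperones 5 lay above and 5 below 0. Unc93b1, which carries the endosomal receptors to their compartment, had the smallest p (0.0833), and Hsp90b1, the most abundant, had overlapping groups. Lbp, which hands lipopolysaccharide to CD14, ranged from 0.774 to 1.20 FPKM in WT mice and was at 3.65, 9.12 and 0.665 in TG1 to TG3, where the choroid plexus markers had the same order.

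Of the 23 adaptors and signalling enzymes, Map3k14 alone passed an unadjusted p of 0.05. Map3k14 (ENSMUSG00000020941) encodes NIK, the kinase that starts the non-canonical branch upstream of p52 and RelB. Its values were 0.545, 0.624 and 0.506 FPKM in WT1 to WT3, against 0.984, 0.971 and 1.01 in TG1 to TG3, so that the TG libraries lay close together and well above WT. The log2 fold change of Map3k14 was 0.73 (standard error 0.178, limma unadjusted p = 0.00411, adjusted p = 0.786), with an unadjusted p of at most 0.0402 in all 17 alternatives, the covariate scores and each library left out among them (adjusted p 0.317 to 1.00). The kinase gene Ripk1 and the adaptor genes Tirap, Traf2 and Ticam2 also had groups that did not overlap without passing the test. With Map3k14, 5 of the 23 genes had all TG values above all WT values and none had all below, against 6.35% and 5.71% of all genes. Ticam2 had only 2 to 11 reads per library, and its groups lay 0.00246 FPKM apart. Ube2n, the most abundant of the list, had overlapping groups.

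None of the 7 other Rel and IkB genes and none of the 13 tested negative regulators passed an unadjusted p of 0.05. Their most abundant genes, Nfkbib (8.39 to 10.1 FPKM over all libraries) and Tollip (32.1 to 35.8), and the genes with the smallest p, Bcl3 and Cyld, had overlapping groups. Of the negative regulators, Tnip3 had no read in any library.

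Of the 28 cytokines and effectors that NF-kB is known to induce, 18 were tested, and Vcam1 and Birc3 were higher with an unadjusted p under 0.05. Vcam1 (ENSMUSG00000027962), an adhesion molecule of endothelial cells that is also made by choroid plexus epithelium, stood at 3.21, 2.33 and 2.56 FPKM in WT1 to WT3, against 4.03, 5.13 and 4.06 in TG1 to TG3. All TG libraries were high (log2 fold change 0.69, standard error 0.154, limma unadjusted p = 0.00254, adjusted p = 0.786). The unadjusted p of Vcam1 was under 0.05 in 15 of 18 alternatives, and its log2 fold change was 0.50 with the choroid plexus score (unadjusted p = 0.050001), 0.55 with the border macrophage score (0.0514) and 0.59 without TG1 and TG2 (0.0677). Birc3, which encodes an inhibitor of apoptosis, stood at 0.356, 0.433 and 0.245 FPKM in WT1 to WT3, against 0.631, 0.679 and 0.520 in TG1 to TG3. The groups lay apart (log2 fold change 0.69, standard error 0.262, limma unadjusted p = 0.0326), on 23 to 61 reads per library. The unadjusted p of Birc3 was under 0.05 in 9 of 17 alternatives. It was above 0.05 without WT1, WT3, TG1 or TG2 and with no filter. With the choroid plexus score it was 0.250 at a log2 fold change of 0.48, and with the border macrophage score 0.0882. The transcripts of Tnf, Il6 and Il1b were at the limit of detection at this depth. Tnf had at most 1 read in a library and Il6 at most 2. Both had a mean FPKM under 0.1 and were not tested, so a difference in them was not detectable. Il1b had 2 to 7 reads per library and was tested, with a log2 fold change of -0.11 (limma unadjusted p = 0.812). Its 95% interval, from 0.464-fold to 1.86-fold, included 1-fold. By qRT-PCR, the study reported higher Il1b and Tnf mRNA in the hippocampus of TG mice. The most abundant gene of the list, Bcl2l1, ranged from 24.1 to 27.0 FPKM among WT and from 23.4 to 28.2 among TG libraries.

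**Figure D4:**
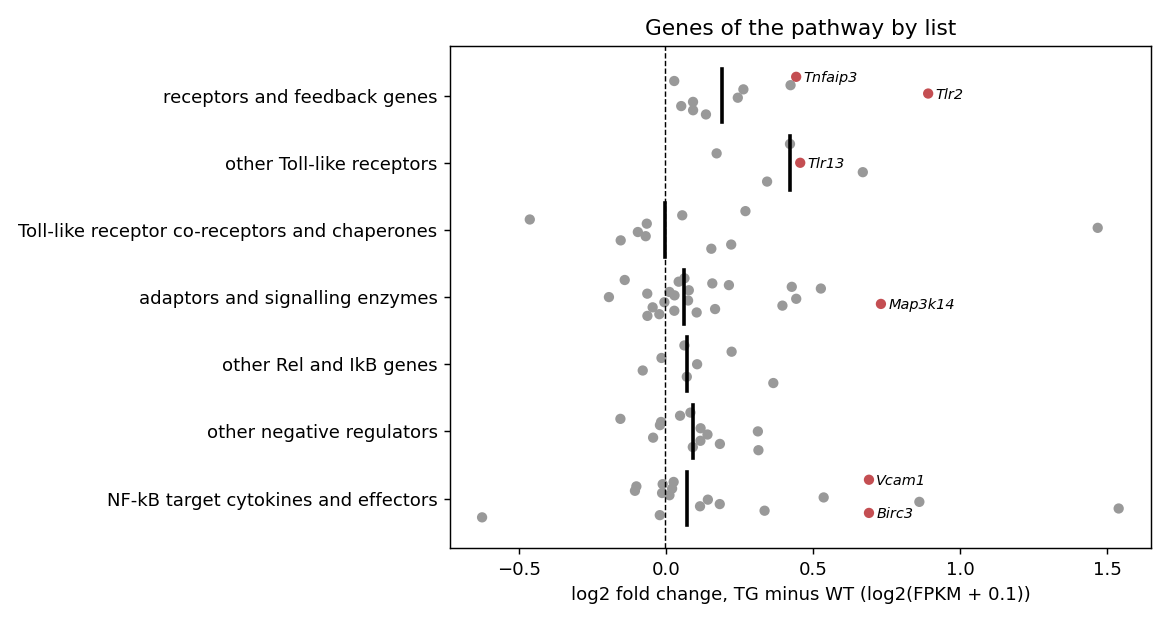
Log2 fold change between TG and WT libraries (horizontal axis) of each tested gene, by list, with the list median as a black bar, the median of all genes as a dashed line and genes with an unadjusted p under 0.05 in red. The named genes lie on the higher side and include Map3k14 at 0.73 and Vcam1 and Birc3 at 0.69.

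The genes most like Tnfaip3, the gene of the group with the smallest p, were sought among 13324 genes (mean FPKM 1 or more). By Pearson correlation of log2(FPKM + 0.1) over the 6 libraries, they included Elk4 (0.995), Rbms2 (0.989), Hspg2 (0.983) and Fbxo28 (0.981). With 6 libraries and this many genes, such values are a description only. Of these named genes, Hspg2 had the largest log2 fold change (0.86), at 0.952 ± 0.255 FPKM in WT and 1.78 ± 0.245 in TG libraries (SD, n = 3 each).

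**Figure D5:**
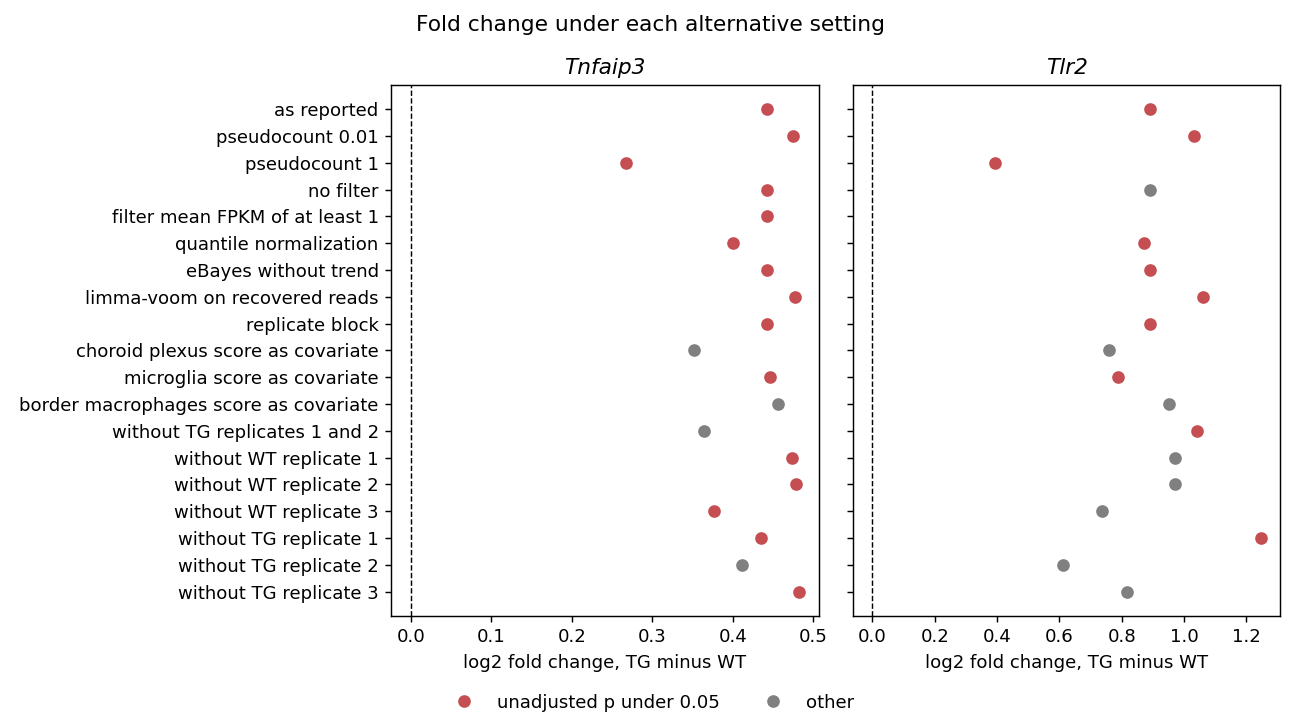
Log2 fold change of Tnfaip3 and of Tlr2 (horizontal axes, different scales) under each alternative setting (rows), red where the unadjusted p was under 0.05. All values lie above 0, from 0.27 to 0.48 for Tnfaip3 and from 0.39 to 1.25 for Tlr2, and the p of Tlr2 is above 0.05 in 8 of 17 alternatives.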

How the data were processed

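The authors extracted and sequenced hippocampal RNA, counted reads per gene with HTSeq and deposited FPKM, scaled to gene length and library size, with 1 column per library. The labels name RNeasy and SMARTer kits, the study's methods Trizol and NEBNext. Builds GRCm38 and mm10 are named in the submitters' processing notes. The aligner, strandedness and the rule for reads that match several genes are not given in the sources used here. Multiplying each deposited FPKM by gene length and by 1 divisor per library returned whole reads for 100% of values (tolerance 0.05 reads).

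From the deposited FPKM, TG was compared with WT by limma 3.58.1 in R 4.3.3 (lmFit, eBayes with trend) on log2(FPKM + 0.1), 3 against 3 libraries, no covariate, Benjamini-Hochberg over 20952 genes, threshold 0.05. An exact permutation test of 3 against 3 cannot go below 0.1 and was not used. Code was tested on simulated data. Sequences are from RefSeq. Shared exons are from GENCODE M21, in which 9 of the 10 genes have the coordinates of the table and Nfkb2 does not. Where RefSeq had several windows, the one nearest to the gene start in the table was used. Scores are the mean over a marker list of log2(FPKM + 0.1) minus the WT mean.

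The genes, lists and alternatives were chosen with earlier results of these data known. Named were the 10 genes, from each pathway list the genes at an unadjusted p under 0.05 (otherwise the smallest p) and the one of highest level, from each marker list the smallest p and the highest level, and the 5 genes most like Tnfaip3, of which 1 is not reported here. Tnf, Il6, Il1b, Lbp, Ripk1, Tirap, Traf2, Ticam2, Tnip3, Prox1, Csf1r, P2ry12, Tmem119, Slc1a2 and the untested receptors were named after their values were seen. Fits of 9 other genes and of the median under the alternatives were added after seeing the data.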

Additional observations from a re-analysis of the deposited data

How the results depend on the processing

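Over 177 alternative values for the 10 genes, 153 kept the direction and the side of an unadjusted p of 0.05, 12 lost it, 5 gained it and 7 turned direction. The median log2 fold change of the 10 genes stayed above 0 in all 18 alternatives (0.12 to 0.26). None of the 10 genes and no gene of the 6 pathway lists had an adjusted p under 0.05 in any of them. The number of the 10 genes higher at an unadjusted p under 0.05 was 1 with no filter, with a filter at a mean FPKM of 1 (which left Tlr2 untested) and without TG1 and TG2, 0 with the choroid plexus score, and 0 to 3 with each library left out in turn. The number lower was 0 throughout. Of the pathway genes, the number higher was 7 without the variance trend, 8 with limma-voom on the recovered reads, 2 with no filter or with the border macrophage score, 1 with the filter at 1, with the choroid plexus score or without TG1 and TG2, and 2 to 5 with each library left out. The number lower was 1 with the choroid plexus or the microglial score, and 0 to 1 with a library left out. The pathway genes tested were 88 with no filter and 42 with the filter at 1, against 76 as reported. Over all genes, the number higher was 656 of 20952 as reported, 618 without the variance trend and 768 with limma-voom. It was 813 of 30589 with no filter, 439 of 13325 with the filter at 1, 394 with the border macrophage score and 327 with the choroid plexus score. With each library left out it was 440 to 769. Tlr7 turned to -0.018 with quantile normalization, -0.094 without WT3 and -0.021 without TG1, and ranged from -0.094 to 0.13 with each library left out. Nfkb2 turned to -0.011 with the microglial score, -0.088 with the border macrophage score, -0.040 without WT2 and -0.060 without TG2, and ranged from -0.060 to 0.21 with each library left out. The adjusted p of Tnfaip3 was 0.657 to 1.00 and that of Tlr2 0.650 to 1.00. Fits with a library left out or a covariate have fewer residual degrees of freedom, and no other cause was tested.

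The deviations of same-numbered WT and TG libraries from their group means had correlations of 0.0125, 0.0434 and 0.00314. Libraries of different number had correlations from -0.0274 to 0.0159. With 3 libraries per group these values cannot decide whether the numbers pair the libraries. With the replicate block, 2 of the 10 genes and 5 pathway genes were higher at an unadjusted p under 0.05.

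Depth limits what can be said of Tlr2 and Tlr4, with at most 65 and 40 reads in a library, and of Tnf, Il6 and Il1b.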

Other observations

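Among the markers of cells that carry these receptors, Trem2 and Csf1r, a lipid receptor and the receptor of a growth factor of microglia, were the 2 microglial genes with an unadjusted p under 0.05 in limma, out of 20 of which 12 had a log2 fold change above 0 and 8 below. Trem2 stood at 2.89, 2.79 and 2.62 FPKM in WT1 to WT3, against 3.27, 3.33 and 3.39 in TG1 to TG3 (log2 fold change 0.26, standard error 0.0943, unadjusted p = 0.0274). Csf1r stood at 19.4, 18.9 and 19.9 FPKM in WT1 to WT3, against 20.1, 23.2 and 23.0 in TG1 to TG3 (log2 fold change 0.19, standard error 0.0765, unadjusted p = 0.0446). In both genes all TG values lay above all WT values, which held for 6.35% of all genes, and 3.13% of all genes were higher at an unadjusted p under 0.05. The microglial markers C1qa (log2 fold change 0.096), P2ry12 (-0.14) and Tmem119 (0.12) had overlapping groups. The unadjusted p was under 0.05 in 10 of 18 alternatives for Trem2 and 8 of 18 for Csf1r. It was above 0.05 without WT2, WT3, TG2 or TG3 for Trem2, and without WT1, WT2, TG2 or TG3 for Csf1r.

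In the other direction, Chil3, a chitinase-like gene of monocytes and neutrophils, stood at 0.563, 0.379 and 0.425 FPKM in WT1 to WT3, against 0.232, 0.137 and 0.237 in TG1 to TG3, on 4 to 17 reads (log2 fold change -0.88, standard error 0.302, limma unadjusted p = 0.0210, above 0.05 without WT1 or TG2). The most abundant gene of that list, S100a9, had 3.91 to 11.3 in WT mice and 3.39 to 12.2 in TG mice. Of the 10 neuronal markers, 5 had a log2 fold change above 0 and 5 below. Calb1, a calcium buffer of granule and CA1 cells, stood at 25.8, 28.2 and 34.6 FPKM in WT1 to WT3, against 23.7, 24.4 and 22.7 in TG1 to TG3 (log2 fold change -0.31, standard error 0.110, unadjusted p = 0.0245, above 0.05 without TG1 or TG3). For Calb1 it was -0.19 without WT3 (unadjusted p = 0.0304) and -0.15 with the border macrophage score (0.356). The endothelial gene Flt1 stood at 5.62, 5.70 and 4.86 FPKM in WT1 to WT3, against 6.65, 5.94 and 6.57 in TG1 to TG3 (log2 fold change 0.24, standard error 0.0968, unadjusted p = 0.0403), and its p was above 0.05 in 11 of 18 alternatives, among them those without WT1, WT3, TG1 or TG3. The adjusted p of each of these 5 genes was 0.786.

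Of the other leading markers, Kcnj13 and Ttr of the choroid plexus stood at 4.98 and 1168 FPKM in TG1, 12.96 and 3705 in TG2, and 0.610 and 57.7 in TG3, where the WT libraries had at most 0.511 and 73.0. The groups overlapped for Pf4 and Lyve1 (border macrophages), Nkg7 (T and NK cells), Aldoc and Sox9 (astrocytes), Ly6c1 (endothelium), Dcn and Igf2 (meningeal fibroblasts) and Hbb-bs (blood), and none of these 9 genes had an unadjusted p under 0.05.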
